A study of Rattus norvegicus and synthetic construct with 4 samples.

Results

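The elements described here are the STARR-seq oligonucleotides that lie at human immediate early and stress response genes. In STARR-seq, a plasmid carries a candidate regulatory sequence, and the RNA it yields is set against its own DNA to read the activity of that sequence. Elements were taken where the midpoint lay within 5 kb of 1 of 24 points placed at 22 genes (JUN, FOS, JUNB, JUND, ATF3, CEBPB, EGR1, KLF4, KLF6, KLF10, NR4A1, MYC, SOX4, DUSP1, SGK1, ZFP36, BTG2, IER2, GADD45B, PPP1R15A, MCL1 and TXNIP). The rule used position alone and no measured value. It found 11 of the 3378 elements in the count table, at 9 genes. The elements are 198 bp of human sequence with CAGE signal (5' ends of transcripts) in pancreatic islets, and each was carried by several plasmids with random barcodes of 16 bases. The compared groups were 3 RNA libraries from INS1 832/13 cells, a rat insulinoma line used as a beta cell model, and 1 library of the input plasmid DNA. For each RNA library the cells received 10 ug of plasmid by electroporation and were harvested after 24 h. The labels name no stimulus of the cells.

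Immediate early genes are transcribed within minutes of a growth factor, a depolarising signal or a stress, without need for new protein. Many encode transcription factors, among them the JUN and FOS proteins, which pair through leucine zippers to form AP-1. Others encode proteins that end or temper the response, such as phosphatases, kinases and factors that destabilise messenger RNA. In beta cells, glucose and calcium entry are known inducers of several of these genes.

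Of the 22 genes, JUN had 3 counted elements, and FOS, JUNB, SOX4, SGK1, ZFP36, PPP1R15A, GADD45B and IER2 had 1 each. A further 7 elements were paired with 1 to 7 barcodes but had none in the count table. They lie at JUND, MCL1, BTG2, EGR1, KLF6 and MYC, with 1 more at JUN. The MCL1 element had 7 paired barcodes, and 27 of the 176 elements with that many (15.3%) were likewise not counted. No paired element was found at ATF3, CEBPB, DUSP1, KLF10, KLF4, NR4A1 or TXNIP, and those 7 loci were not analysed here. The counted members lay 172 to 2916 bp from their points. The nearest counted element beyond the window was 15098 bp from the ZFP36 point, at 1.15 ± 0.231 times the centre of the library (SD, n = 3).

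A plasmid is read through its barcode, and the barcodes below identify the plasmids on which the contrast at JUN rests. The plasmids described here and below are those whose barcodes are in the count table, not all that were paired. They are given as deposited, in lower case with no part marked. The bases of the human elements themselves were not used here. The JUN element from 59249767 to 59249964 on chromosome 1 (hg19, as are all coordinates here) had 8 paired barcodes. Its 5 counted plasmids (62.5%) carried these barcodes.
JUN upper 1: gcatataactctgtct
JUN upper 2: caagatagttttactc
JUN upper 3: gctacacattttgaca
JUN upper 4: tgtgaactaatttgag
JUN upper 5: gatcaagtaactaaac
The element from 59249667 to 59249864 also had 8 paired barcodes, and its 5 counted plasmids (62.5%) carried the following.
JUN middle 1: taaatatagcatgcta
JUN middle 2: tttcaagctttcagaa
JUN middle 3: aagcacctcaattgat
JUN middle 4: ttaatttgaggccctc
JUN middle 5: ttttctatctggagcg
The element from 59249567 to 59249764 had 28 paired barcodes, of which 9 (32.1%) were counted. The 3 counted plasmids with the most RNA counts or, among ties, the first in the alphabet are shown.
JUN lower 1: agcattaatatatacg
JUN lower 2: cggttctgctgtgaag
JUN lower 3: ggggtatcatctgtgt

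The RNA libraries held 211117, 197554 and 218571 counts, and the plasmid DNA library held 1079728. The 11 elements had 59 barcodes, with 127, 201 and 165 counts in RNA replicates 1 to 3 and 1889 counts in the DNA. The share of the RNA that came from them was 0.0791% ± 0.0210 (SD, n = 3), and their share of the DNA was 0.175%. These are shares of raw library totals, in which the typical element also had less RNA than DNA. With library totals the median log2 RNA/DNA was -0.77 over all elements and -1.24 over the members. The median member had 5 barcodes, against 6 over all elements. Of 160 paired barcodes on these elements, 59 were in the count table (36.9%, exact 95% confidence interval 29.4 to 44.9%), against 40.8% of all paired barcodes. This interval takes barcodes as independent draws and covers counting error only. Every counted barcode has at least 1 RNA count, so plasmids without RNA do not enter these values.

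Fitted outputs of the immediate early and stress gene elements lay below the centre of the library in 9 of 11 cases, and none was called different from it. The centre is the point at which normalized RNA equals normalized DNA, so it is a property of the pooled elements and not of a control sequence. In edgeR's quasi-likelihood test over all 3378 elements, 0 of 11 members were above the centre at a Benjamini-Hochberg adjusted p under 0.05, against a background of 8.88% of elements. None of the 11 was below it, against a background of 0.0%. At an unadjusted p under 0.05 the members again gave 0 above and 0 below, with backgrounds of 13.5% and 0.77%. limma-voom also called 0 above (background 15.1%) and 0 below (background 4.03%). DESeq2 called 0 above (background 12.4%) and 0 below (background 0.0%), and it gave 3 of the 11 an adjusted p. At an unadjusted p under 0.05, limma-voom had 1 member above (background 18.9%) and 2 below (background 12.7%). The lowest adjusted p in the edgeR fit was 0.659.

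The members' log2 RNA/DNA ran from -2.24 to 1.65, with a median of -0.49 against -0.03 over all elements. Over all elements, 51.2% of the values were negative. In 3 of 3 RNA libraries, 6 members were below the centre, where the background was 29.4%, and 1 member was above it, where the background was 25.8%. The remaining 4 members lay on different sides in different libraries. Because the list was drawn up with earlier results of these data known, these shares are descriptions and were not tested. The median over members was -1.46, -0.12 and -0.87 in RNA replicates 1 to 3 (pseudocount of 0.5), so it differed between libraries by more than its distance from the median of all elements.

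The precision of single members was low. Their SEs on the log2 scale were 1.02 to 1.84, with a median of 1.67 against 1.24 over all elements. All 11 intervals of 95% included the centre. Between the RNA libraries, a member's log2 RNA/DNA had a median SD of 1.05, against 0.81 over all elements. With 2 to 4 barcodes, which 5 members had, the lowest log2 ratio called anywhere in the library was 2.25. With 5 to 9 barcodes, which another 5 had, it was 1.87. No member with these numbers of barcodes reached those values, which are the lowest that happened to be called and not limits of detection.

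JUN, a subunit of AP-1, was represented by 3 elements stepped by 100 bp. The upper one lay above the centre, and the others lay below it. JUN is transcribed from the minus strand, so higher coordinates lie towards its upstream side. The element with the highest coordinates, from 59249767 to 59249964, had 39, 27 and 48 RNA counts over 125 DNA counts. Its RNA/DNA was 2.67, 1.94 and 3.20 times the centre in RNA replicates 1 to 3, a mean of 2.60 ± 0.634 (SD, n = 3). It was the only member above the centre in 3 of 3 libraries, and 83.4% of all elements had a lower fitted ratio. Its log2 ratio of 1.38 ± 1.14 (SE) had an adjusted p of 0.765 in edgeR's test, with a 95% interval of 0.538 to 12.5 times the centre. In limma-voom this element had a log2 ratio of 1.37 and an adjusted p of 0.142.

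The middle JUN element, from 59249667 to 59249864, shares 98 bp with the upper one and was below the centre in every RNA library. It had 7, 9 and 6 RNA counts over 169 DNA counts, or 0.355, 0.477 and 0.296 times the centre. The lower element, from 59249567 to 59249764, shares 98 bp with the middle one and 0 bp with the upper one. It had 6, 7 and 7 RNA counts over 272 DNA counts, or 0.189, 0.231 and 0.214 times the centre. This was the lowest value among the members in the main fit (log2 -2.24 ± 1.57, SE; edgeR adjusted p = 0.659), and 4.85% of all elements were lower. In limma-voom this element had a log2 ratio of -2.15 and an adjusted p of 0.0749. Its SD of log2 ratios between libraries, 0.14, was also the smallest among the members.

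In each of the 3 pairs of JUN elements, also the middle and the lower one, the libraries of the elements did not overlap. Upper minus middle was 2.71 ± 0.69 on the log2 scale (SD, n = 3; pseudocount of 0.5), or 6.54-fold. Upper minus lower was 3.51 ± 0.45, or 11.4-fold, and middle minus lower was 0.80 ± 0.29, or 1.74-fold. Both elements of a pair were read in the same libraries, so the pairs were tested by a two-sided exact permutation test that swaps the elements within a library. For each of the 3 pairs this exact permutation test gave p = 0.25, the smallest that 3 libraries allow, and 0.25 after Benjamini-Hochberg adjustment. Non-overlap is common among neighbours: of 240 pairs of counted elements offset by 100 bp, 21.2% had libraries that did not overlap. By size, the step between the upper and the middle JUN element was exceeded in 9 of those 240 pairs. The step between the middle and the lower one was exceeded in 130 of them.

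The separate plasmids show how this contrast was built up. Barcode JUN upper 1 had 18, 21 and 27 RNA counts over 56 DNA counts and held 57.9% of the RNA of its element. Barcode JUN upper 2 had 14, 4 and 16 RNA counts over 23 DNA counts, and JUN upper 3 had 4, 0 and 4 over 19. The other 2 upper plasmids had 4 and 2 RNA counts in all. Output above the centre was therefore read from 3 of 5 plasmids by their mean ratios, which were 3.38 ± 0.631, 4.19 ± 2.30 and 1.19 ± 1.03 times the centre (SD, n = 3).

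No counted plasmid of the middle or the lower JUN element averaged above the centre. The highest of the middle ones, JUN middle 1, had 1, 8 and 0 RNA counts over 32 DNA counts, a mean of 0.836 ± 1.22 times the centre (SD, n = 3). None of the 9 plasmids of the lower element had more than 3 counts in any RNA library. Its leading plasmid by RNA counts, JUN lower 1, had 0, 2 and 3 over 39 DNA counts. With the plasmid of most RNA left out of every element, the remaining counts were normalized anew. In that fit the upper JUN element was at a log2 ratio of 1.38, the middle at -1.48 and the lower at -2.03. Its centre is not that of the main fit, so these values cannot be set directly beside those above. Leaving out each RNA library in turn kept the upper element between 1.20 and 1.55 and the lower one between -2.30 and -2.19.

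FOS, the leucine zipper partner of JUN, had the member with the most barcodes, from 75745457 to 75745654 on chromosome 14. Its 13 counted plasmids, of 40 paired barcodes, gave 18, 13 and 42 RNA counts over 435 DNA counts. The ratios were 0.355, 0.268 and 0.804 times the centre, all below it, with replicate 3 the highest. The fitted log2 ratio was -1.07 ± 1.02 (SE; edgeR adjusted p = 0.834), and its 95% interval reached from 0.117 to 1.94 times the centre. Without RNA replicate 3 the log2 ratio was -1.68. Of the 13 FOS plasmids, 4 had 5 or more counts in any library, and each of the 4 reached it in a single library. Over all plasmids, 45.2% had 5 or more counts in any library, and 63.1% of those reached it in a single library.

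The most productive FOS plasmid is shown because it held 24 of the 42 counts in the highest library.
FOS leading: gtatccgtttgcttta
It had 1, 1 and 24 RNA counts over 15 DNA counts and so held 35.6% of the RNA of the element, nearly all of it in replicate 3.

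JUNB, another AP-1 subunit, had the highest fitted ratio among the members, on 3 plasmids and with libraries on both sides of the centre. The element from 12902223 to 12902420 on chromosome 19 had 11, 48 and 4 RNA counts over 59 DNA counts, or 1.60, 7.29 and 0.565 times the centre. Replicate 2 was far above it and replicate 3 was below it. The log2 ratio was 1.65 ± 1.73 (SE; edgeR adjusted p = 0.866), and without RNA replicate 2 it was 0.11. The barcodes of its 3 plasmids are given because the first of them was read in replicate 2 alone.
JUNB 1: tttatatagctggttt
JUNB 2: cgtaatcgtggtttga
JUNB 3: acctatatagtgctgt
The first had 0, 36 and 0 RNA counts over 20 DNA counts and supplied 57.1% of the RNA. With the plasmid of most RNA left out of every element and the remaining counts normalized anew, the log2 ratio was 1.40. The centre of that fit is not the one behind the 1.65, so the 2 values are not directly comparable. The second had 11, 11 and 3 over 10 DNA counts, and the third had 0, 1 and 1 over 29.

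Among the 5 elements at JUN, FOS and JUNB, 3 were below the centre and 2 above it, with a median log2 ratio of -1.07. In the main fit this leucine zipper group therefore contained the lowest member as well as the pair of highest ones, none of them called. The lowest place differed between fits. It was held by SGK1 in limma-voom (log2 -2.42) and by IER2 without RNA replicate 3 (log2 -3.13).

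SOX4, an HMG-box transcription factor that takes part in the development of pancreatic endocrine cells, was the only other transcription factor gene with a counted element. The element from 21593907 to 21594104 on chromosome 6 had 18, 23 and 16 RNA counts over 228 DNA counts. Its ratios of 0.676, 0.904 and 0.584 times the centre were all below it and close together. The log2 ratio was -0.47 ± 1.34 (SE; edgeR adjusted p = 0.975).

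A single one of the 7 counted SOX4 plasmids, of 17 paired barcodes, held most of the RNA of the element and is shown for that reason.
SOX4 leading: tttcgaaacttgactc
It had 15, 18 and 12 RNA counts over 54 DNA counts, which was 78.9% of the RNA of the element and 2.41 ± 0.569 times the centre (SD, n = 3). The other 6 plasmids had 1 to 5 RNA counts each in all libraries together. In the refit without the plasmid of most RNA in every element, which has its own centre, the SOX4 log2 ratio was -1.93.

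The 5 regulator genes each had 1 element, and all 5 ratios of the main fit were below the centre, against 51.2% of all elements. Their median log2 ratio was -0.49. In some alternative fits GADD45B, IER2 and PPP1R15A were above the centre. SGK1 encodes a kinase induced by serum and glucocorticoids. Its element, from 134495883 to 134496080 on chromosome 6, had 0, 4 and 5 RNA counts over 106 DNA counts from 4 plasmids. The ratios were 0.338 and 0.393 times the centre in replicates 2 and 3. With counting error alone, the count of 0 in replicate 1 allows up to 0.242 times (3 counts), and the spread between libraries would allow more. All 3 were below the centre, and the fitted log2 ratio was -2.02 ± 1.73 (SE; edgeR adjusted p = 0.788). In limma-voom it was -2.42, with an adjusted p of 0.0664.

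ZFP36 encodes a protein that binds AU-rich messenger RNAs and speeds their decay. Its element, from 39897406 to 39897603 on chromosome 19, had 0, 5 and 3 RNA counts over 53 DNA counts from 2 plasmids. Replicates 2 and 3 gave 0.845 and 0.471 times the centre. The count of 0 in replicate 1 allows up to 0.485 times with counting error alone, and more with the spread between libraries. The fitted log2 ratio was -1.18 ± 1.69 (SE; edgeR adjusted p = 0.942). It was -2.05 without RNA replicate 2 and -0.63 without replicate 1. SGK1 and ZFP36 were the 2 members with no RNA count in a library, which 8.05% of all elements shared.

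PPP1R15A encodes the stress-induced factor that directs a phosphatase to the initiation factor eIF2α. Its element, from 49375574 to 49375771 on chromosome 19, had 24, 45 and 11 RNA counts over 280 DNA counts from 7 plasmids. The ratios of 0.734, 1.44 and 0.327 times the centre lay on both sides of it, with replicate 2 above. Its log2 ratio was -0.26 ± 1.12 (SE; edgeR adjusted p = 0.994), and without RNA replicate 2 it was -0.91. Different plasmids led in different libraries, with 1 plasmid giving 20 of the 24 counts in replicate 1 and 2 others giving 18 and 13 of the 45 counts in replicate 2.

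GADD45B, a stress-induced regulator of growth arrest, and IER2, a nuclear immediate early protein, had 2 counted plasmids each. They came from 13 and 6 paired barcodes. The GADD45B element, from 2476074 to 2476271 on chromosome 19, had 3, 19 and 5 RNA counts over 83 DNA counts, or 0.310, 2.05 and 0.502 times the centre. The IER2 element, from 13263818 to 13264015 on the same chromosome, had 1, 1 and 18 RNA counts over 79 DNA counts, or 0.108, 0.113 and 1.90 times the centre. In both, 1 library was above the centre and the others below it. A single plasmid supplied 81.5% of the GADD45B RNA and 90.0% of the IER2 RNA. The log2 ratios of -0.07 ± 1.83 and -0.49 ± 1.84 (SE) had edgeR adjusted p of 0.9999 and 0.991. Without RNA replicate 2, the GADD45B value was -1.29. Without RNA replicate 3, the IER2 value was -3.13, and without replicate 2 it was 0.01.

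High counts (5 or more in any RNA library) were seen on 15 of the 59 plasmids (25.4%), against 45.2% of all plasmids. Counts of 5 or more were found for 6, 9 and 6 plasmids in RNA replicates 1 to 3, which is 10.2, 15.3 and 10.2% of the members' plasmids, against 22.7, 22.1 and 23.4% of all plasmids. Plasmids of 1 element share its sequence, so these differences were not tested. Of the 15 member plasmids with 5 or more counts in any library, 11 (73.3%) reached it in 1 library, against 63.1% in the whole table. Another 2 reached it in 2 libraries and 2 in all 3. The 2 that did so in all 3 were JUN upper 1 and SOX4 leading. That is 13.3% of such plasmids here, against 14.3% in the whole table.

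Elements at other immediate early and stress genes were also not called. A list of 30 further genes was searched in the same window around approximate gene starts, and 10 counted elements were found at 8 of them. Of these 10, 0 were above (background 8.88%) and 0 below (background 0.0%) the centre at an edgeR adjusted p under 0.05. The counts were also 0 and 0 at an unadjusted p under 0.05, with backgrounds of 13.5% and 0.77%. At an unadjusted p, limma-voom had 1 of them above (background 18.9%) and 2 below (background 12.7%). Their median log2 ratio was -0.45, with 6 negative and 4 positive. The highest was at RHOB, a small GTPase gene, at 2.29, 2.08 and 3.44 times the centre (log2 1.38 ± 0.94, SE; edgeR adjusted p = 0.645). This element was above the centre in 3 of 3 libraries.

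DDIT3, the CHOP factor of the unfolded protein response, had 33 plasmids and the tighter values that this allows. Its element gave 0.441, 0.740 and 0.848 times the centre (log2 -0.56 ± 0.56, SE; edgeR adjusted p = 0.847), all below it. Its 95% interval ended at 1.46 times the centre. ID3, an inhibitor of helix-loop-helix factors, had 23 plasmids and gave 1.17, 0.737 and 1.13 times the centre. The lowest element was at CDKN1A, a cell cycle inhibitor induced by p53, with 1, 2 and 2 RNA counts over 81 DNA counts from 2 plasmids. These few counts gave 0.106, 0.221 and 0.206 times the centre. The log2 ratio was -2.46 ± 1.67 (SE), with an edgeR adjusted p of 0.644 and a 95% interval that ended at 1.82 times the centre.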

How the data were processed

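The authors deposited raw counts per barcode for 3 RNA libraries and 1 plasmid DNA library, with a table pairing 86107 barcodes with 4323 elements. That the counts are not normalized was judged from their values, and coordinates are on hg19, as the submitters' processing notes state. The filter behind the table, read trimming, barcode matching and any molecular identifiers are not stated in the labels or files used here. All count columns were used.

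Counts were summed per element and tested as RNA against DNA over all 3378 elements with edgeR 4.0.16 (R 4.3.3), by its quasi-likelihood F test after TMM normalization, with p-values adjusted by Benjamini-Hochberg and called at 0.05. At least 2 barcodes and 10 DNA counts were required, which removed 0 elements. TMM factors were 0.876, 0.895 and 0.870 for RNA and 1.47 for DNA. The SE is the absolute log2 ratio over the square root of F. Ratios per library are normalized RNA over normalized DNA. There is 1 DNA library, so its error is not in the SDs, and the p-values measure the spread between electroporations of 1 plasmid pool.

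Members and lists were chosen with earlier results of these data known. The naming rule took called members, the member nearest each point, the 5 highest and lowest with at least 5 barcodes, and overlapping members, and so covers all 11. Starts of the 30 further genes are approximate hg19 positions from general knowledge, and a human annotation was not used here. The element test was checked on simulated counts. Alternatives used DESeq2 1.42.0, limma 3.58.1 and other filters, and Python 3.11.15 with scipy 1.17.1 was used for exact tests.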

Additional observations from a re-analysis of the deposited data

How the results depend on the processing

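In every alternative run, 0 of the members were above and 0 below the centre, among them DESeq2 size factors, library totals, at least 5 barcodes (6 members), DESeq2, limma-voom, low RNA counts (1 to 4 on a barcode) taken as 0, a window of 2 kb and leaving out each RNA replicate. The lowest adjusted p over them was 0.0664, for SGK1 in limma-voom. The members' median log2 ratio was -1.24 with library totals, -1.19 in limma-voom, and -1.33 with low RNA counts set to 0, where the median of all elements was -0.77, -0.32 and -0.85. Without 1 RNA replicate it ranged from -1.24 (without replicate 3) to -0.45. Without the barcode of most RNA in each element, an alternative chosen after seeing the data, it was -1.48 against -0.18 for all elements. The remaining counts were normalized anew in that fit, so its centre is not that of the main fit. Single values changed direction in 6 of 105 comparisons. GADD45B was at 0.0075 with DESeq2 size factors, 0.0080 in DESeq2 and from -1.29 to 0.32 over the fits without 1 RNA replicate, with 0.24 without replicate 3. IER2 ranged from -3.13 to 0.0064 over these fits, and PPP1R15A from -0.91 to 0.12. The cause was not tested. RNA could not be paired with DNA by replicate, because a single plasmid DNA library serves all the RNA libraries. Only the JUN elements were compared with each other within libraries.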

Other observations

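For each barcode on the 11 elements, the nearest other barcode of the pairing table differed at 2 to 5 of the 16 positions. Of the 59 plasmids, 11 (18.6%) had a count in all 3 RNA libraries, against 32.1% of all plasmids, and 27 (45.8%) had one in a single library, against 37.5%. The median plasmid had 30 DNA counts here and 26 in the whole table. HSPA5, which encodes the main chaperone of the endoplasmic reticulum, had 3 elements stepped by 100 bp like those at JUN. From the highest to the lowest coordinates their RNA/DNA was 0.388, 1.14 and 0.201 times the centre (means of 3 libraries), and the middle value came from replicate 3 alone.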
